A study of Mus musculus with 4 samples.

Results

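The chemokines and their receptors were taken as all genes whose symbol begins with Ccl, Cxcl, Cx3cl, Xcl, Ccr, Cxcr, Cx3cr or Ackr followed by a digit. The array annotation named 59 such genes out of 19505, of which 38 were ligands, 17 signalling receptors and 4 atypical receptors. They were read on Clariom S Mouse arrays in RNA of the fat pad at the epididymis of male mice, with 1 array for each of 4 groups. The vehicle sham group was treated with DMSO and had sham surgery. The vehicle overload group was treated with DMSO and had synergist ablation, in which helper muscles are taken out so that the remaining one bears more load. The GW4869 sham and GW4869 overload groups had the same surgeries under GW4869, labelled as an inhibitor of extracellular vesicles. The labels give neither strain, age, dose, time nor route, and do not say whether an array holds 1 mouse or a pool. By its title, the study concerns vesicles of overloaded muscle and lipolysis in fat. With 1 array per group no value has a replicate error and no test was made. All differences describe pairs of arrays, on the deposited log2 scale, and a count refers to differences of at least 1.5-fold, or 0.58 log2 units.

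Chemokines are small secreted proteins that set up gradients along which leukocytes move. They are classed by the spacing of their first cysteines into CC, CXC, CX3C and XC ligands, and they signal through G protein-coupled receptors, while the atypical receptors (Ackr) bind ligands without G protein signalling and remove or store them. In fat, CC ligands such as Ccl2 are known for drawing monocytes that become macrophages, and Cxcl13 is known for organising B cells in the lymphoid clusters of visceral fat.

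Cxcl13, the ligand that draws B cells through Cxcr5, had log2 levels of 9.12 on the vehicle sham array, 9.82 on vehicle overload, 15.22 on GW4869 sham and 16.33 on GW4869 overload. Both GW4869 arrays were thus far above both vehicle arrays. GW4869 in sham mice differed from vehicle by 6.10 log2 units for this gene, rank 1 among the 11703 genes above the floor, and by 6.51 in overloaded mice, rank 50. Ccl2, Ccl7 and Ccl3, which recruit monocytes, were highest on the GW4869 overload array, at 10.94, 9.45 and 9.65. Ccl9 and Ccl6, made by macrophages, were higher on both GW4869 arrays than on both vehicle arrays. The Ccl21 genes, whose product guides T cells and dendritic cells through Ccr7, were highest on the GW4869 sham array, and Ccl27a was high on vehicle sham alone.

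Many members lay near background. The floor, the 40th percentile of gene means, was log2 4.67, and 32 of the 59 members passed it on their mean over the arrays. A gene high on 1 array can pass in that way, so counts over these 32 are given beside counts over all 59. The 95th percentile of antigenomic background rows was between 6.34 and 6.40 on the 4 arrays. The 27 members under the floor read between 1.78 and 6.34. Above the antigenomic percentile stood 14 members on all arrays, 11 on some and 34 on none. Negative control rows had a higher 95th percentile, between 9.01 and 9.27, which 16 members passed on at least 1 array and 9 on all. Where a reading lies under the antigenomic percentile, a bound is given in which 6.40, the highest of the 4 percentiles, takes its place. In these bulk samples fewer cells of a type and less RNA per cell cannot be told apart.

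The arrays also differed in markers of other cells. Mature adipocyte markers had median levels of 16.38 and 16.86 on the vehicle sham and overload arrays and of 16.71 and 16.38 on the GW4869 sham and overload arrays. All 14 measured markers were above background on each array. In that order of arrays, 10, 0, 0 and 3 of 10 sperm and testis markers and 3, 0, 0 and 10 of 11 epididymal markers were above background. All 5 distal tract markers were above it on both sham arrays and 0 on the overload arrays. Macrophage markers had medians of 8.98, 9.62, 10.58 and 11.02, with summed log2 levels of 15.03, 15.65, 16.96 and 17.02. Fcgr1 on vehicle sham was the only one of the 9 within background on any array. Gene by gene, the median difference of GW4869 overload to GW4869 sham was -0.28, with 3 of the 9 at least 1.5-fold higher and 2 lower. Of 9 neutrophil markers 4 were above background on GW4869 overload and 0 on the other arrays. On GW4869 overload S100a8 was at 8.63 and Csf3r at 8.72. Elane, Mpo, Ngp, Camp and Ltf were within background there, at 4.69, 3.30, 2.38, 2.43 and 2.46. T cell and eosinophil markers had 0 of 9 and 0 of 4 above background on any array, whereas 1 of 5 B cell markers, Cd79a at 6.88, and 1 of 7 NK cell markers, Klrb1c at 7.10, passed it on GW4869 overload. The part of these cells in the chemokine values below was not tested.

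**Figure D1:**
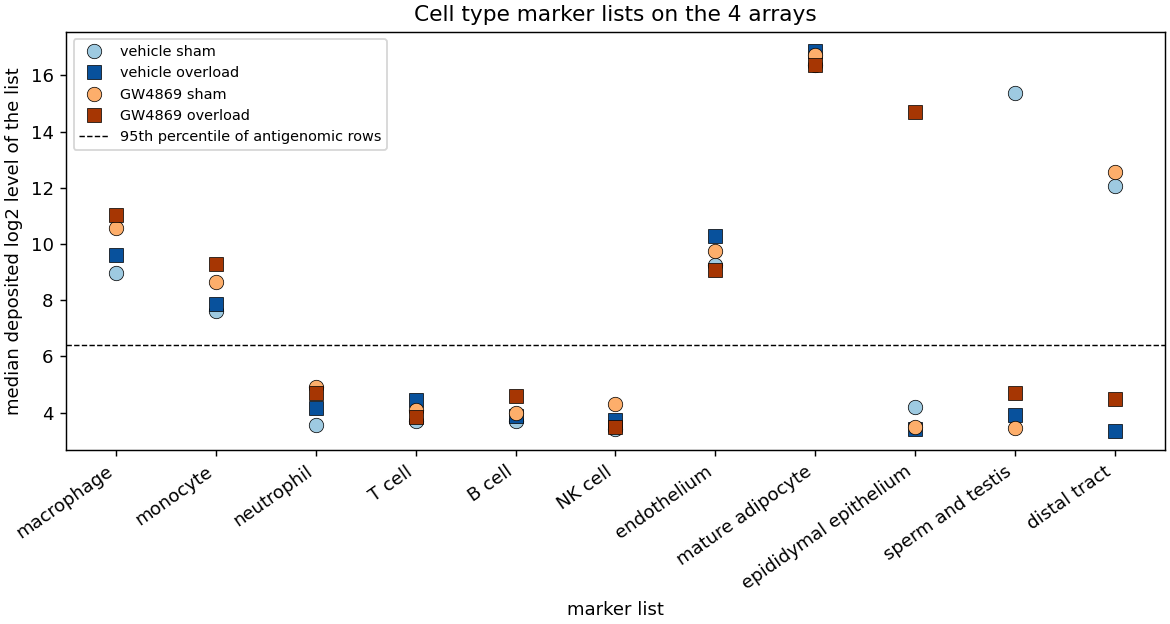
Median deposited log2 level of each marker list (y axis) on the 4 arrays, 1 point per array, with the antigenomic 95th percentile as a dashed line. Macrophage and monocyte medians are highest on the GW4869 overload array, and the 3 tract lists are each high on 1 or 2 arrays only. Gene by gene, macrophage markers had a median difference of -0.28 between GW4869 overload and GW4869 sham. The summed monocyte level is highest on vehicle sham, at 13.70 against 12.75 on GW4869 overload.

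With GW4869, most members above the floor read higher than with vehicle. In sham mice 21 of the 32 were at least 1.5-fold higher and 1 lower, where 28.9% of all genes above the floor were higher and 14.4% lower. Over all 59 members 31 were higher and 4 lower, against 24.3% and 15.2% of all genes. The median difference was 1.38 over the 32, while the median gene differed by 0.27. In overloaded mice 16 of the 32 were higher and 7 lower, against 18.4% and 18.8% of all genes above the floor, and of the 59 there were 24 higher and 11 lower, against 15.1% and 19.4%. The median here was 0.61, while the median gene had -0.04. More members were higher than lower under 3 other scalings, though not under macrophage centring, which is given below. In sham mice 26, 18 and 20 were higher and 1, 3 and 3 lower under all-gene centring, adipocyte centring and trend removal. In overloaded mice 15, 20 and 16 were higher and 8, 0 and 6 lower. All genes did shift with scaling, since the median gene in sham mice moved to 0.63, -0.06 and -0.02, and in overloaded mice to -0.26, 0.44 and 0.01. In the same order, the higher share of all genes past 1.5-fold moved from 66.7% to 83.4%, 39.7% and 41.9% in sham mice, and from 49.5% to 30.1%, 87.9% and 54.8% in overloaded mice.

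Both contrasts use different arrays, so a member can be read in each. Of the 32 members, 12 were at least 1.5-fold higher with GW4869 in both surgeries, against 6.61% of all genes above the floor, and of the 59 it was 15, against 4.86%. Both GW4869 arrays stood above both vehicle arrays for 19 of the 32, against 22% of all genes above the floor. They stood above for 26 of the 59, against 19.1%. The reverse order held for 0 of the 32, against 11.2%, and for 3 of the 59, against 13.5%. Of the 19, Ccl5, Ccl19 and Cx3cl1 lay within background on every array. Ccl3, Ccl12 and Cxcl10 lay within it on GW4869 sham, and Cxcr4 on GW4869 overload, so their order there is not resolved. Cxcl12 counted with 11.8882 on GW4869 sham against 11.8877 on vehicle overload. The members under the floor that the 26 include were within background on every array. The 12 were 8 CC ligands of inflammation or their kin (Ccl2, Ccl3, Ccl6, Ccl7, Ccl8, Ccl9, Ccl12, Ccl24), Ccl19, Cxcl13, Cxcl16 and the receptor Ccr1. These counts use the deposited values. As bounds, Ccl3 and Ccl12 had 0 in sham mice, Ccl19 had 0 in both surgeries and Ccr1 had 0.37 in overloaded mice. Those members thus cannot be given as 1.5-fold higher in both. Macrophage markers were higher too, with a median difference of 1.60 and 9 of 9 higher in sham mice, and 0.70 with 5 of 9 higher in overloaded mice. When the arrays were centred on macrophage markers, a setting added after seeing the data, 11 members were higher and 14 lower in sham mice, where 0.684% of all genes above the floor were higher and 88.5% lower. In overloaded mice 7 members were higher and 18 lower, where 3.58% of all genes were higher and 87.8% lower.

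**Figure D2:**
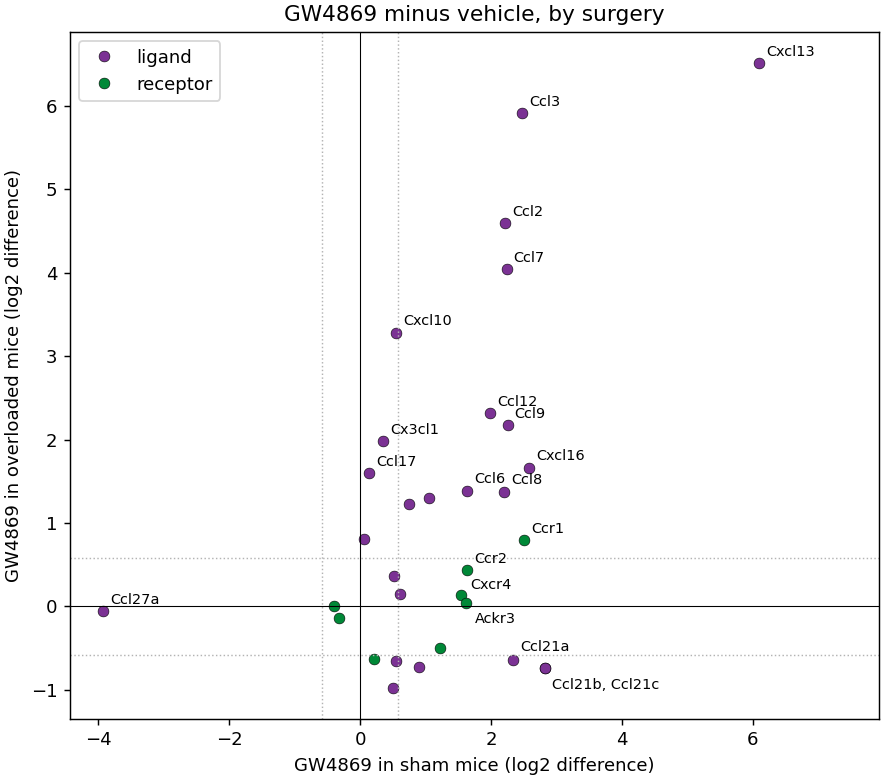
Each point is a member above the floor, with its log2 difference GW4869 minus vehicle in sham mice (x axis) and in overloaded mice (y axis), and dotted lines mark 1.5-fold. Cxcl13 lies at 6.10 and 6.51, Ccl3, Ccl2 and Ccl7 above 2 on x and above 4 on y, and the Ccl21 genes are positive on x and negative on y.

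Most CC ligands of inflammation were higher with GW4869. Of their 10 members above the floor, 9 were higher in sham mice and 0 lower, against 28.9% and 14.4% of all genes above the floor. In overloaded mice 9 were higher and 1 lower, against 18.4% and 18.8%. Over all 12 measured it was 9 and 0 in sham mice, against 24.3% and 15.2% of all genes. In overloaded mice it was 10 and 1, against 15.1% and 19.4%. The medians in sham and in overloaded mice were 2.10 and 1.78 over the 10 above the floor. Over all 12 they were 1.81 and 1.38. Readings within background enter these counts and medians. Ccl5 and, among the 12, Ccl4 lay within background on every array, yet both count as higher in overloaded mice. In sham mice Ccl3 and Ccl12 count as higher with bounds of 0. Ccl2, the monocyte attractant that signals through Ccr2, had levels of 5.11 on vehicle sham, 6.34 on vehicle overload, 7.33 on GW4869 sham and 10.94 on GW4869 overload. Its neighbour Ccl7, another Ccr2 ligand, had 5.21, 5.41, 7.45 and 9.45 in the same order of arrays. Ccl12, the mouse ligand closest to Ccl2 in this group, had 4.06, 5.16, 6.05 and 7.48. All 3 were highest on GW4869 overload. Their vehicle readings lay within background, so the GW4869 differences are bounds of 4.54, 3.06 and 1.08 in overloaded mice and of 0.93 and 1.06 for Ccl2 and Ccl7 in sham mice, where both Ccl12 readings lay within background.

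Ccl3, a ligand of Ccr1, had levels of 3.49, 3.74, 5.96 and 9.65, above background on GW4869 overload only. The bound on its difference to the other arrays is 3.25. Ccl4, the gene beside it, stayed within background on every array, between 3.81 and 5.56. Ccl9 had 12.18, 12.69, 14.43 and 14.86, and Ccl6 11.27, 11.47, 12.90 and 12.85. These are macrophage-derived Ccr1 ligands in the mouse, and both were read well above background on all arrays. Their GW4869 differences were alike in both surgeries, 2.25 and 2.17 for Ccl9 and 1.63 and 1.39 for Ccl6. Ccl8 had 5.52, 5.91, 7.72 and 7.29, above background on the GW4869 arrays only, with bounds of 1.33 in sham and 0.89 in overloaded mice.

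The eotaxins attract eosinophils through Ccr3, and Ccl11 and Ccl24 differed in which array was highest. Ccl11 had 12.91 on vehicle sham, 14.17 on vehicle overload, 13.81 on GW4869 sham and 13.45 on GW4869 overload, so vehicle sham was the lowest array and vehicle overload the highest. Its GW4869 difference was 0.89 in sham and -0.72 in overloaded mice. Ccl24 had 6.94, 7.60, 7.99 and 8.91, with GW4869 differences of 1.06 and 1.30. Ccl26, another eotaxin, and Ccr3 itself stayed within background on every array. Ccl5, made by T cells and other leukocytes, stayed between 4.78 and 5.59, within background.

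Most of these CC ligand genes lie in 2 runs on chromosome 11, in the RefSeq order of protein-coding genes, with other kinds of genes left out. Ccl2, Ccl7, Ccl11, Ccl12, Ccl8 and Ccl1 follow one another, and so do Ccl5, Ccl9, Ccl6, Ccl3 and Ccl4. Neighbours in this order did not always share a pattern over the arrays. Ccl11 sits between Ccl7 and Ccl12, yet its GW4869 difference in overloaded mice was -0.72 where theirs were 4.04 and 2.31 as deposited. Ccl6 and Ccl3 are also adjacent, and overload under GW4869 differed from sham by -0.05 for Ccl6 and by 3.69 for Ccl3.

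**Figure D3:**
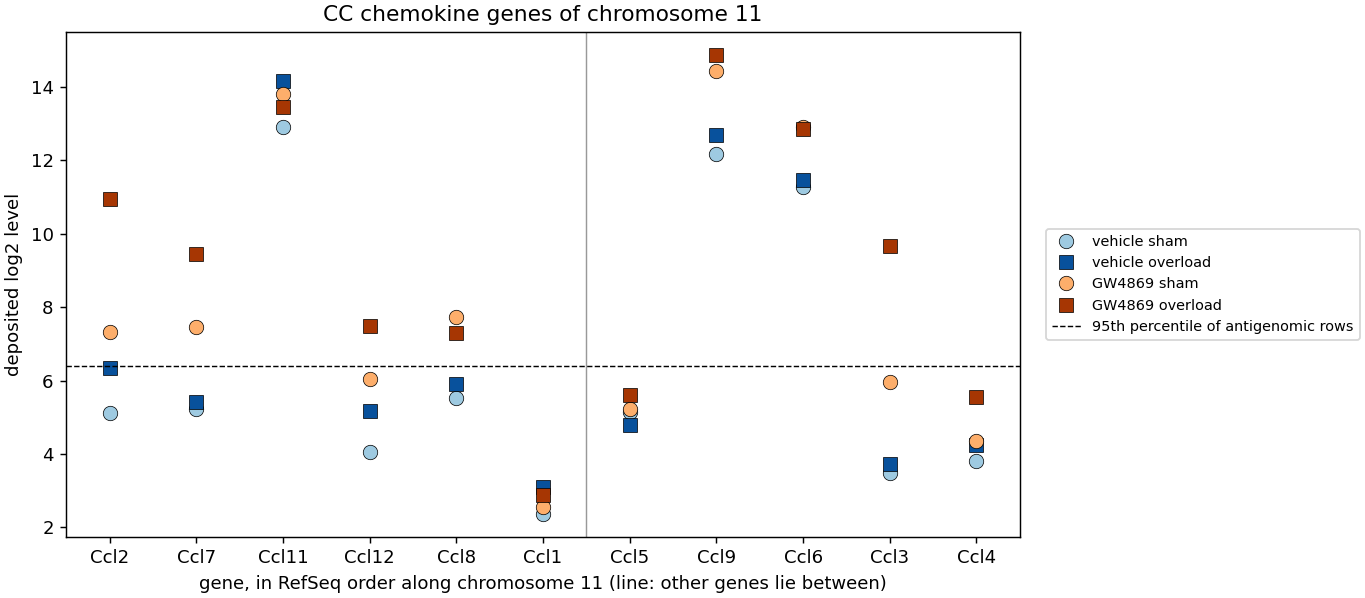
Deposited log2 level (y axis) of 11 CC ligand genes in their RefSeq order on chromosome 11 (x axis), 1 point per array, with the antigenomic 95th percentile dashed. Ccl2, Ccl7, Ccl12 and Ccl3 are highest on GW4869 overload, Ccl11 on vehicle overload, and Ccl8 and Ccl6 on GW4869 sham.

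The CXC ligands that carry the ELR motif and draw neutrophils through Cxcr2 read low throughout. All 5 measured genes, Cxcl1, Cxcl2, Cxcl3, Cxcl5 and Cxcl15, were under the floor on their mean and within background on every array. The levels of 3 of them are given although they were chosen after their values were seen. Cxcl1 had 3.47 and 3.94 on the vehicle arrays and 4.10 and 6.34 on the GW4869 arrays, sham before overload, and Cxcl2 had 2.53, 2.87, 3.31 and 6.11. Cxcl5 had 2.46, 2.54, 2.29 and 4.78. The GW4869 overload reading was the highest in each of the 3, but no difference between readings at this level can be given as more than a bound of 0. Cxcr2 and Cxcr1, the receptors of this group, stayed between 1.79 and 4.61. On GW4869 overload 4 of 9 neutrophil markers were above background, and 0 on the other arrays, as given above. Elane and Mpo, within background, differed there from GW4869 sham by -0.64 and -1.07 as deposited.

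Among the ligands of Cxcr3, which T cells and NK cells follow, Cxcl10 stood out on GW4869 overload. Its levels were 4.27, 4.62, 4.82 and 7.90, with a bound of 1.5 on the difference to any other array. Cxcl9 had 10.02, 11.08, 10.52 and 10.11, highest on vehicle overload. Its overload difference was 1.06 under vehicle and -0.41 under GW4869. Cxcl11, which RefSeq lists as a transcribed pseudogene, stayed between 2.45 and 4.05, within background. Cxcr3 was within background as well, between 5.34 and 5.74.

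The promoter sequences of Cxcl1, Cxcl2, Cxcl10 and Cxcl13 are shown, chosen by their readings. The first 3 read highest on GW4869 overload, although Cxcl1 and Cxcl2 lay within background there too. Cxcl13 was high on both GW4869 arrays. Each is the 250 bases before the gene's start in RefSeq, build GRCm38.p6, written 5′ to 3′ along the gene. Capitals mark matches to the NF-kB consensus or to the core of the interferon response element, GAAA, any 2 bases and GAAA, on either strand and with overlapping matches joined.
Cxcl1 (chr5:90890995-90891244, plus strand): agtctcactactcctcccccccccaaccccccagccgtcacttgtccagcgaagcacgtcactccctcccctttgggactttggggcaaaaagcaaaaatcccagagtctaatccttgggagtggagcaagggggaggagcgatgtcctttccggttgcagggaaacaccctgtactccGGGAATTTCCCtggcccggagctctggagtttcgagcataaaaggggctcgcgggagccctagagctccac
Cxcl2 (chr5:90903649-90903898, plus strand): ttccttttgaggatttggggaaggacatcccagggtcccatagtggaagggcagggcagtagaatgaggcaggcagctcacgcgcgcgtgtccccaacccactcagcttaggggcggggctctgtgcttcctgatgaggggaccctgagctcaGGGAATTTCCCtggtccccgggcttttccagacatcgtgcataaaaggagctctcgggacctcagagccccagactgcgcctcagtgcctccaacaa
Cxcl10 (chr5:92348890-92349139, minus strand): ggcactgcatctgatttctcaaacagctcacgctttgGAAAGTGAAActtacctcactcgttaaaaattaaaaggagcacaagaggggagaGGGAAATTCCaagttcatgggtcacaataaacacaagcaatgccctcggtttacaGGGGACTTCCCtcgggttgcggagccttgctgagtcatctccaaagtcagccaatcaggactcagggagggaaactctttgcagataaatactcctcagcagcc
Cxcl13 (chr5:95956689-95956938, plus strand): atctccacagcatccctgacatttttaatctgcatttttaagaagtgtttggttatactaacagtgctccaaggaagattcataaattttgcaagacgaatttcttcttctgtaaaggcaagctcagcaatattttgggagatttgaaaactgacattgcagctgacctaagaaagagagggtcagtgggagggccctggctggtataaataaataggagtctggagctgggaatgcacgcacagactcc
Cxcl1 and Cxcl2 both hold GGGAATTTCC, which starts 71 bases before the start of Cxcl1 and 97 before that of Cxcl2. Cxcl10 holds the NF-kB consensus at 159 and 104 bases and GAAAGTGAAA at 213 bases before its start. In Cxcl13 these letters are not in this window. Of 32851 promoters of the same length 7.25% hold the NF-kB consensus, 0.0852% hold GGGAATTTCC and 2.98% hold the interferon core. Promoters were found for 44 of the 59 members, and 11, 4 and 3 of these 44 hold the 3 motifs. Counted by promoter, it was 11, 4 and 3 of 48, or 22.9%, 8.33% and 6.25%. GGGAATTTCC was taken from the Cxcl1 promoter itself, so its match there was fixed in advance. The NF-kB consensus is held by Ackr2, Ccl1, Ccl9, Ccl20, Ccr1, Ccr3, Ccr6, Cxcl1, Cxcl2, Cxcl3 and Cxcl10. Of these, only Ccl9, Ccr1 and Cxcl10 were above background on any array. A motif match describes the sequence and is not a measured binding site.

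Among the other CXC and CX3C ligands, Cxcl16 followed Cxcl13 in being higher on both GW4869 arrays. Cxcl16, a membrane-bound ligand of Cxcr6 and a scavenger receptor of macrophages, had 7.95, 8.89, 10.53 and 10.55, with GW4869 differences of 2.58 in sham and 1.66 in overloaded mice. Cxcl12, which holds Cxcr4-bearing cells in tissue, was the steadiest of the 4 above the floor, at 11.36, 11.89, 11.89 and 12.25. None of its comparisons reached 1.5-fold. Cx3cl1, the membrane-tethered ligand of Cx3cr1, had 3.99, 4.25, 4.34 and 6.23, all within background. Cxcl14, Cxcl17 and Xcl1 were likewise within background on every array.

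The ligands of lymphoid tissue, T cells and epithelia had mixed differences. Of their 8 members above the floor, GW4869 came with 5 higher and 1 lower in sham mice and with 2 higher and 4 lower in overloaded mice. Of all genes above the floor, 28.9% were higher and 14.4% lower in sham mice, and 18.4% and 18.8% in overloaded mice. The probe sets of Ccl21b and Ccl21c gave identical values on every array, 10.56, 11.80, 13.38 and 11.06, and Ccl21a had 10.77, 11.61, 13.11 and 10.97. These genes are near-identical copies, so their readings are uncertain as to the copy. Taken as 1 signal, they leave 3 higher and 1 lower in sham mice and 2 higher and 2 lower in overloaded mice, of 6. Of those higher in sham mice, Ccl19 and Ccl28 lay within background on every array. The Ccl21 signal was highest on GW4869 sham, where it stood 2.83 above vehicle sham for Ccl21b. On GW4869 overload the Ccl21b reading stood 0.74 below vehicle overload. Ccl19, the other Ccr7 ligand, lay between 4.13 and 5.53 and Ccr7 between 5.26 and 5.89, both within background on all arrays. Of 5 lymph node stroma markers only Chst4 was above background on any array, at 6.99 on GW4869 sham.

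Ccl27a, known as a skin-homing ligand of Ccr10, had 10.90 on vehicle sham, 6.93 on vehicle overload and 6.97 and 6.88 on the GW4869 arrays. The 3 low arrays lay within 0.10 log2 units of one another. Vehicle sham was also the array on which 10 of 10 sperm and testis markers, with a median of 15.38, were above background. Ccl17, a Ccr4 ligand of dendritic cells and macrophages, had 6.33, 6.55, 6.47 and 8.14, about 1.60 above vehicle on GW4869 overload. Ccl25, which guides gut and thymic lymphocytes through Ccr9, had 6.38, 7.27, 6.93 and 6.61, close to background. Ccl28, a ligand of mucosal epithelia, had 4.85, 5.72, 5.45 and 5.87, and like Ccl20, Ccl22 and Ccl1 it was within background on every array.

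**Figure D4:**
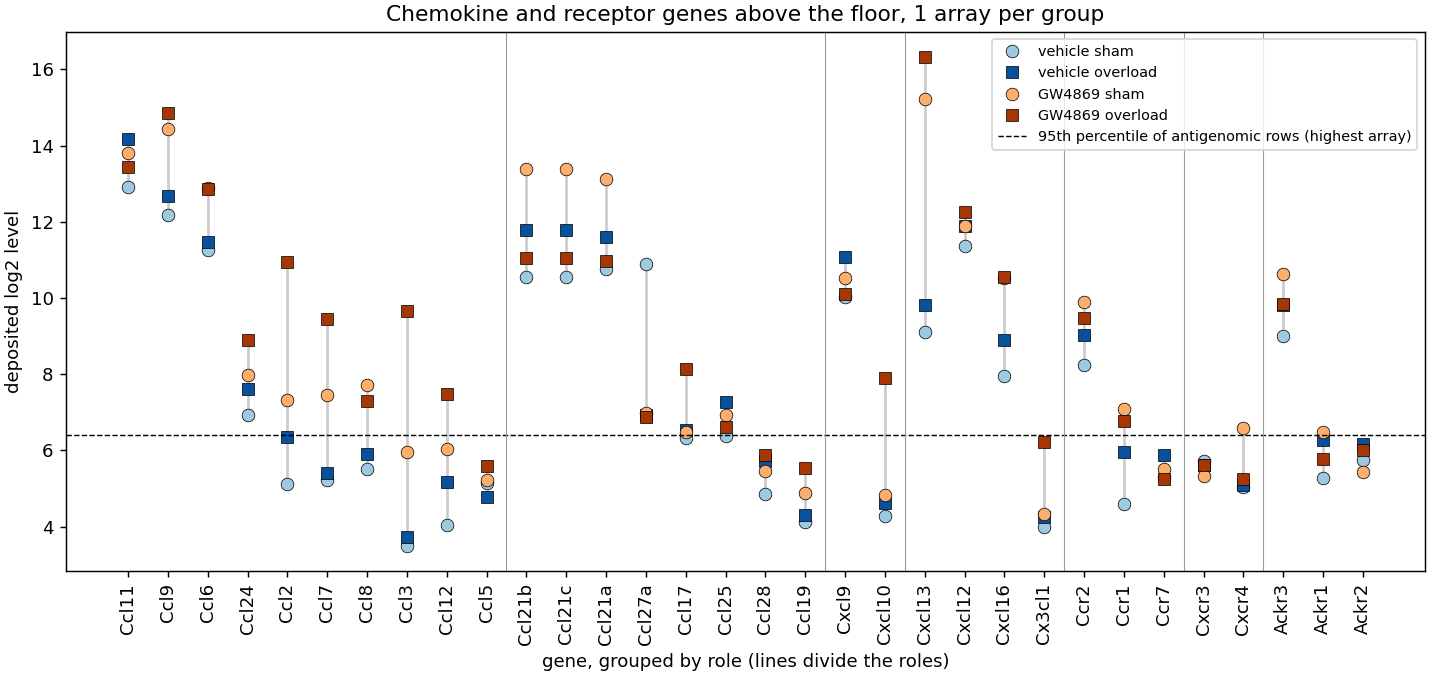
Deposited log2 levels (y axis) of the 32 members above the floor on the 4 arrays, grouped by role, with the antigenomic 95th percentile dashed and grey bars from the lowest to the highest array. Levels of different genes are not comparable, since probes differ. Vehicle sham is the lowest array for 27 of the 32 members, against 45.9% of all genes above the floor, and GW4869 overload the highest for 15, against 26.7%.

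Few receptors were read above background. Ccr2, the receptor of Ccl2, Ccl7 and Ccl12 on monocytes, had 8.25 on vehicle sham, 9.04 on vehicle overload, 9.89 on GW4869 sham and 9.47 on GW4869 overload. Ccr1, a receptor of monocytes and neutrophils for Ccl3, Ccl6 and Ccl9, had 4.59, 5.97, 7.10 and 6.77. Both were highest on GW4869 sham, whereas Ccl2 and Ccl3 were highest on GW4869 overload, and the vehicle readings of Ccr1 lay within background. GW4869 in sham mice differed by 1.64 for Ccr2 and by at least 0.70 for Ccr1. In overloaded mice the values were 0.43 for Ccr2 and at least 0.37 for Ccr1. Cxcr4, the receptor of Cxcl12 on most leukocytes, was at 6.59 on GW4869 sham and between 5.05 and 5.25 elsewhere. Cxcr5, the receptor of Cxcl13, stayed between 3.48 and 4.11, and Cxcr6, Cx3cr1, Ccr4, Ccr6, Ccr8, Ccr9, Ccr10 and Ccr1l1 were likewise within background on all arrays.

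Among the atypical receptors, Ackr3, which scavenges Cxcl12 and is found on vessels and stromal cells, had 9.0, 9.82, 10.62 and 9.86. Its pattern had the order of Ccr2 at its ends, with GW4869 sham highest and vehicle sham lowest. Ackr1, which carries chemokines across venules, had 5.27, 6.28, 6.48 and 5.79, above background on GW4869 sham only. Ackr2, the scavenger of inflammatory CC ligands, stayed between 5.43 and 6.16, and Ackr4, which scavenges Ccl19, Ccl21 and Ccl25, between 3.55 and 4.16, both within background.

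Overload under vehicle came with 17 of the 32 members above the floor at least 1.5-fold higher and 1 lower, against 30.2% and 16.9% of all genes above the floor. Over all 59 members 24 were higher and 4 lower, against 27.2% and 16.7% of all genes. The median difference was 0.63, where the median gene had 0.26. All-gene centring gave 28 higher members, adipocyte centring 6 and trend removal 11, with 1, 3 and 1 lower. The median gene moved to 0.73, -0.22 and -0.02, and the higher share of all genes past 1.5-fold from 64.2% to 83.6%, 24.0% and 41.5%. Among members read above background on both arrays, Ccl11, Ccl21b with Ccl21c, and Cxcl9 had the largest positive differences, 1.26, 1.24 and 1.06. Ccl21a had 0.84. Cxcl16, Ackr3, Ccr2 and Cxcl13 had 0.94, 0.82, 0.79 and 0.70. The lower member was Ccl27a, with -3.97. Macrophage markers had a median of 0.57 with 4 of 9 higher in this comparison, and endothelial markers 0.84 with 5 of 8 higher. Vehicle sham, which carried the testis markers, enters every difference under vehicle and every GW4869 difference in sham mice, so both sets share its readings.

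Overload under GW4869 came with 11 of the 32 members higher and 6 lower, against 13.4% and 15.3% of all genes above the floor. Of the 59 it was 19 and 9, against 12.1% and 14.7%. The median difference was 0.15, where the median gene had -0.04. It moved to -0.14, 0.30 and 0.03 under all-gene centring, adipocyte centring and trend removal, with 9, 16 and 11 members higher and 6, 4 and 6 lower. The higher share of all genes went from 46.7% to 34.9%, 81.0% and 55.2%. Ccl2 and Ccl7, whose readings were above background on both arrays, differed by 3.61 and 2.0. Ccl3 and Cxcl10 differed by at least 3.25 and 1.5, and Ccl17, Cxcl13 and Ccl24 by 1.67, 1.11 and 0.91. On the lower side were the Ccl21 genes, with -2.32 for Ccl21b and Ccl21c and -2.15 for Ccl21a, and Ackr3 with -0.76. Cxcr4 had -1.35 and Ackr1 -0.70 as deposited, but their overload readings lay within background. In the same comparison the 11 measured epididymal markers had a median difference of 11.74, with all 11 higher. The 9 neutrophil markers had 0.61, with 5 higher and 2 lower. The 5 neutrophil markers above the floor had 2.88, with 4 higher and 1 lower. S100a8 and S100a9 pass the floor through their GW4869 overload readings of 8.63 and 7.94, so this subset depends partly on the array compared. The 9 macrophage markers had -0.28, with 3 higher and 2 lower. Endothelial markers had -0.61 with 4 of 8 lower, fibroblast and progenitor markers -0.90 with 5 of 7 lower, and mast cell markers -1.13 with 4 of 6 lower.

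The overload difference under GW4869 was then set against that under vehicle. The difference between them was at least 1.5-fold positive for 8 of the 32 and negative for 14, against 21.5% and 36.3% of all genes above the floor. For the 59 it was 16 and 22, against 21.2% and 34%. The median was -0.20 and the median gene had -0.27. Adipocyte centring turned this median to 0.61 and that of all genes to 0.54, and trend removal turned them to 0.16 and 0.08. As deposited, the difference between the overload differences was 3.87 for Ccl27a, 3.44 for Ccl3, 2.73 for Cxcl10 and 2.38 for Ccl2, and -3.56 for Ccl21b and Ccl21c and -2.98 for Ccl21a. The sham and vehicle readings of Ccl3 and Cxcl10 and the vehicle readings of Ccl2 lay within background.

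**Figure D5:**
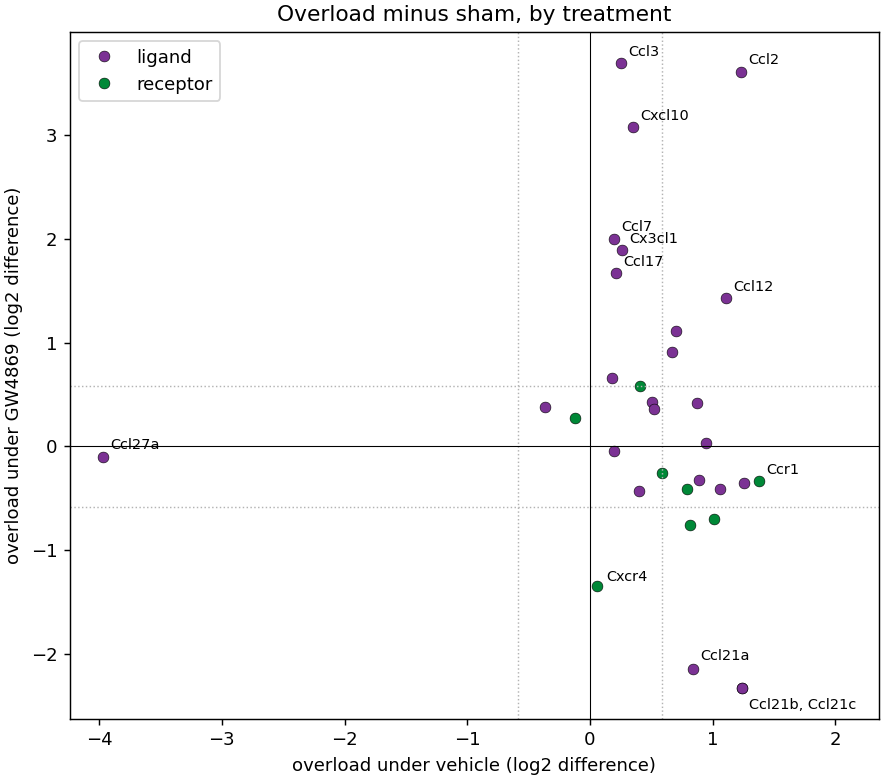
Each point is a member above the floor, with its log2 difference overload minus sham under vehicle (x axis) and under GW4869 (y axis), and dotted lines mark 1.5-fold. Ccl3, Ccl2 and Cxcl10 lie above 3 on y, the Ccl21 genes below -2, and Ccl27a alone at -3.97 on x.

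A list of cytokines and regulators of chemokine transcription held both activators and feedback inhibitors. Of its 10 genes above the floor, 9 were higher with GW4869 in sham mice, against 28.9% of all genes above the floor, and 9 in overloaded mice, against 18.4%. In either surgery 0 were lower. Over all 19 genes of this list 14 were higher and 1 lower in sham mice, against 24.3% and 15.2% of all genes. In overloaded mice it was 13 and 1, against 15.1% and 19.4%. The list was also higher with overload. Under vehicle 9 of the 10 were higher and 0 lower, against 30.2% and 16.9% of all genes above the floor. Under GW4869 it was 8 and 0, against 13.4% and 15.3%. Over all 19 it was 12 and 0 under vehicle, against 27.2% and 16.7% of all genes. Under GW4869 it was 11 and 1, against 12.1% and 14.7%. In the usual order of arrays, 7, 8, 8 and 11 of the 19 were above background. Il1b, a cytokine that induces many chemokines, was at 4.02, 5.13, 4.88 and 9.88 on the 4 arrays. It was above background on GW4869 overload alone. Tnfaip3, a feedback inhibitor that NF-kB induces, had 7.19, 8.08, 9.46 and 10.58, and Nfkbia, another, had 9.69, 10.66, 11.27 and 12.45. Irf7 of the interferon response had 5.57, 6.50, 7.75 and 8.77. These last 3 were highest on GW4869 overload, as was Ccl2, and next highest on GW4869 sham. Ifng, the main inducer of Cxcl9, stayed within background on every array, between 2.85 and 3.99.

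The same shares of all genes above the floor, 28.9% higher and 14.4% lower in sham mice and 18.4% higher and 18.8% lower in overloaded mice, stand beside the lists that follow. Adhesion genes that let leukocytes cross the vessel wall had 7 of 11 members higher with GW4869 in sham mice and 0 lower, and 6 higher and 1 lower in overloaded mice. Over all 13 measured it was 7 and 0 in sham mice, against 24.3% and 15.2% of all genes. In overloaded mice it was 7 and 1, against 15.1% and 19.4%. Itgal, at 4.29, 4.59, 4.92 and 6.74, was above background on GW4869 overload alone, and that reading lifts its mean over the floor. Icam1, an endothelial ligand of leukocyte integrins, had 5.47, 6.44, 6.83 and 9.01, and Itgb2, a subunit of those integrins, had 6.32, 7.17, 8.75 and 9.19. Of 18 genes of receptor signalling, 10 were higher and 0 lower in sham mice, and 10 higher and 2 lower in overloaded mice. Rac2, the leukocyte GTPase that drives migration, had 5.56, 6.34, 7.97 and 9.58. Of 7 proteases that trim or shed chemokines, 6 were higher in sham mice and 3 in overloaded mice, with 0 lower. Over all 9 measured these counts were the same. Mmp12, the macrophage elastase, had 12.57, 13.36, 14.62 and 13.55, highest on GW4869 sham. Chemokine genes that carry other names were mixed, with 5 of 8 higher and 1 lower in sham mice and 2 higher and 1 lower in overloaded mice. Over all 9 measured it was 6 and 1 in sham mice and 2 and 1 in overloaded mice. Pf4, a CXC ligand of platelets also known from macrophages, had 9.17, 9.34, 10.12 and 10.33.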

How the data were processed

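RNA of epididymal fat from 4 groups of male mice was read on 1 Clariom S Mouse array each. The authors deposited log2 values per probe set, and the submitters' processing notes name Partek and RMA. No version or setting is recorded there, and values up to 19.93 exceed an ordinary scanner's range, so a log2 unit is a doubling on the deposited scale only. Of 28846 rows, 19572 had 1 gene symbol. A gene with several probe sets was read from the brightest on average, giving 19505 genes, which mattered for 1 member, Ccl21b. Groups came from the sample titles. Members and gene lists were chosen with earlier results of these data known. Members above the floor were named with their levels or range, and others by name, with levels of some chosen after seeing them. Of each other list up to 4 genes with the largest differences were named, and those set beside a member. Differences were array minus array, with no test. The counting was tested on simulated data. The floor was the 40th percentile of gene means and background the 95th percentile of control rows. A value counted as moved past log2 of 1.5, a count past 1.5 times. Alternatives were 3 scalings, other floors, a 2-fold threshold and averaged probe sets, and after seeing the data macrophage centring, a background bound and Ccl21 as 1 gene. Computation used Python 3.11.15 with pandas 2.3.3 and statsmodels 0.14.6.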

Additional observations from a re-analysis of the deposited data

Results flagged for a closer look

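Some members had overload differences of at least 1.5-fold in opposite directions under vehicle and under GW4869, each with 1 array per group, and the difference between them was not tested. It was -1.71 for Ackr1 (1.01 under vehicle, -0.70 under GW4869), -1.58 for Ackr3 (0.82 and -0.76), -2.98 for Ccl21a (0.84 and -2.15) and -3.56 for Ccl21b and Ccl21c (1.24 and -2.32). The Ackr1 readings lay within background on all arrays but GW4869 sham. The same holds for GW4869 against vehicle in sham and in overloaded mice, where the difference was -1.62 for Ccl11 (0.89 in sham, -0.72 in overloaded mice). For Ccl21a it was -2.98 (2.34 and -0.64), and for Ccl21b and Ccl21c -3.56 (2.83 and -0.74). These are again the same 4 arrays, so the second set for Ccl21 is no separate observation.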

How the results depend on the processing

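No paired analysis was possible because the labels give no replicate numbers and each group has 1 array, and for the same reason no replicate could be left out. Where a value moved, the cause was not tested. Counts are of members at least 1.5-fold higher or lower. For overload under vehicle, where 17 were higher and 1 lower, the higher count became 28 with all-gene centring, 6 with adipocyte centring, 11 with trend removal, 11 with a floor at the 60th percentile and 8 at 2-fold. The lower count became 3 with adipocyte centring, 4 with a floor at the 20th percentile and 4 with no floor. For overload under GW4869 the higher count became 3 with the 60th percentile floor and 19 with no floor. For GW4869 in sham mice the higher count became 12 with the 60th percentile floor, the lower count 3 with adipocyte centring, 3 with trend removal, 2 with the 20th percentile floor and 4 with no floor, and the median 0.76 and 0.61 with the last 2 of these. For GW4869 in overloaded mice the higher count became 6 with the 60th percentile floor, and the lower count 0 with adipocyte centring, 11 with no floor and 0 at 2-fold. For the difference between the overload differences, adipocyte centring gave 16 higher, 9 lower and a median of 0.61, the 20th percentile floor 13 higher, the 60th percentile floor 2 higher, 8 lower and a median of -0.91, and no floor 16 higher and 22 lower. Keeping only members above background on at least 1 array gave a median of -0.83.

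Macrophage centring, the background bound and counting the Ccl21 genes as 1 were chosen after seeing the data. Macrophage centring turned 3 medians, to -0.013 for overload under vehicle, -0.22 for GW4869 in sham mice and -0.79 for GW4869 in overloaded mice. It gave 5 higher and 4 lower for overload under vehicle, 13 lower for overload under GW4869, 11 higher and 14 lower for GW4869 in sham mice, against 0.684% and 88.5% of all genes above the floor, and 7 higher and 18 lower in overloaded mice, against 3.58% and 87.8%. It also moved the median of all genes to -0.38 and -0.48 for overload with vehicle and with GW4869, and to -1.33 and -1.45 for GW4869 after sham surgery and after overload. The background bound gave 11 higher and a median of 0 for overload under vehicle, medians of 0.53 and 0.019 for GW4869 in sham and in overloaded mice, and 9 lower for the difference between the overload differences. Of 80 differences of named members past 1.5-fold, 77 stayed past it with all-gene centring, 72 with trend removal, 57 with adipocyte centring, 80 with averaged probe sets, 78 with values raised to the floor and 58 with the background bound. Signal over background limits 34 of the 59 members, whose readings passed the antigenomic percentile on 0 arrays.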
